A study of Homo sapiens with 12 samples.

Results

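IL1R2, which encodes the decoy receptor of interleukin-1 (IL-1), was described here together with the genes of the IL-1 receptors and ligands around it, across all 12 arrays of the study. The 7 genes are IL1R2, IL1R1, IL1RAP, IL1A, IL1B, IL1RN and IL18, and their probes were found through the RefSeq accession printed for each probe. They have 12 probes among the 41000 probes of the array, of which 25398 matched a gene symbol. IL1R2 and IL1R1 have 2 probes each, IL1RAP has 4, and IL1A, IL1B, IL1RN and IL18 have 1 each. The probes for IL1A, IL1B and IL18 are printed in 10 spots per array and the others in 1. The family was chosen by the log2 ratios of the β-catenin pair, in which IL1R2 was the highest of all probes with a gene symbol, so the β-catenin values below describe how it was selected and lend no support to anything else.

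The study asked how depletion of coactivators of Tcf/β-catenin changes Wnt-dependent expression in human cell lines. Ls174T cells come from a colorectal tumour and signal through Wnt without added ligand, and HEK293T cells come from embryonic kidney and need added Wnt3A. All cells received 15 nM siRNA for 72 h. In Ls174T cells, 2 arrays held β-catenin-depleted (si-b-catenin) RNA against si-control RNA with the dyes exchanged, and 4 arrays held RNA of cells given si-MLLT10, si-BRG1, si-P300 or si-control, each beside human reference RNA. Of the 6 arrays with HEK293T RNA, all beside the same kind of reference, 1 came from si-control cells in control medium (CM) and the others from cells kept for 9 h in Wnt3A with si-control, with si-BRG1, with si-P300, with si-MLLT10 or with si-DOT1L. Each condition had 1 array or, for β-catenin depletion, the dye-swapped pair. No replicate cultures are labelled, which leaves differences without a check by replicates and without a p-value. Ls174T si-control RNA was read both in the pair and on a reference array, and whether both came from 1 culture is not stated. The error beside each value is that of the scanner program's error model, which covers the spots and their background and not the spread between cultures. In bulk RNA, fewer cells that express a gene and less RNA per cell cannot be told apart.

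IL-1α and IL-1β, the products of IL1A and IL1B, signal through the receptor encoded by IL1R1, which pairs with the accessory protein encoded by IL1RAP and passes the signal through MyD88 and IRAK kinases to NF-κB. The product of IL1R2 binds the same ligands and the same accessory protein but lacks the intracellular signalling domain, so that it captures the ligand without a signal. IL1RN encodes a soluble antagonist that occupies the signalling receptor. IL-18 is a related cytokine with a receptor of its own, is made by intestinal epithelial cells, and, like IL-1β, is released after cleavage by caspase-1.

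Of the 7 genes, 6 had at least 1 window in the RefSeq promoter table (build GRCh38.p14), and 2 of these windows belong to IL1R2. Both are printed because the probe annotation names no start for the IL1R2 transcript, and the 2 starts lie in different sequence. Each window holds the 250 bases before an annotated start, on the + strand, 5′ to 3′. Capitals mark matches to 3 short motifs searched on both strands: the TATA box TATAAA, the Tcf/Lef core CTTTGA and the AP-1 motif TGANTCA, where N is any base.
IL1R2, chr2:101991710-101991959: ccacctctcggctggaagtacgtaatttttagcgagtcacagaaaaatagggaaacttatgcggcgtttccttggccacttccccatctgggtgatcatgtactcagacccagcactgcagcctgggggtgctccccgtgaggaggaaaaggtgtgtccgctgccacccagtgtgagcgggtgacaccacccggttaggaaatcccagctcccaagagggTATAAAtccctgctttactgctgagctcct
IL1R2, chr2:101998711-101998960: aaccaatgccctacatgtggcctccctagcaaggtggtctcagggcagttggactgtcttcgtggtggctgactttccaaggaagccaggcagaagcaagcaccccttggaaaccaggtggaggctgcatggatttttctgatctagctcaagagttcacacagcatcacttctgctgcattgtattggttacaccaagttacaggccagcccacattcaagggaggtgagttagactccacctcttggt
The upstream window held 1 TATA box at 30 to 25 bases before the start and none of the other motifs, and the downstream window held none of the 3. Among all 35116 windows of this length in the table, 10.7% held TATAAA, 11.2% held CTTTGA and 6.57% held TGANTCA. A match describes the letters in the window and is not a binding site, and no match says only that these letters are not there.

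A probe was called well-measured where, on each array of a comparison, 1 channel or both read more than 2 times the background around the spot, and well above background where the scanner program marked it so. The 5 slides divide the conditions unevenly: the β-catenin pair shared a slide, as did Ls174T si-BRG1 and si-P300, and HEK293T control medium, si-MLLT10 and si-DOT1L. Ls174T si-control and si-MLLT10 shared a slide with HEK293T si-BRG1 and si-P300, and the HEK293T si-control Wnt3A array stood alone on its slide, so for every HEK293T comparison with it, and for BRG1 and p300 depletion against si-control in Ls174T cells, slide and condition cannot be told apart. The siRNA targets fell in the depleted cells. On the log2 scale, the 2 CTNNB1 probes read -2.71 and -2.49 after β-catenin depletion, SMARCA4 (encoding BRG1) by -2.53 to -2.24 in Ls174T and by -4.00 to -3.95 in HEK293T cells, MLLT10 by -1.42 and -1.76 at its well-measured probe in the 2 lines, EP300 by -1.34 and -2.85 at 1 probe and by -0.60 and -2.35 at the other, and DOT1L by -1.97 and -1.41 at 2 probes, with 0.17 at the third. AXIN2, a Wnt target, changed by 1.08 ± 0.30 with Wnt3A in HEK293T cells. Colon epithelial markers were well above background for 11 or 12 of 12 genes on the Ls174T arrays and for 7 to 10 of 12 on the HEK293T arrays, at a median signal of 25.3 to 97.9 times background against 2.10 to 3.12 times. PTPRC, which marks leukocytes, was well above background on 3 arrays, Ls174T si-BRG1, Ls174T si-P300 and HEK293T si-control Wnt3A. On the last of these, 8 of 9 leukocyte markers were above background at a median of 2.41 times it, against 7 of 9 and medians of 1.77 to 2.05 on the other 5 HEK293T arrays, and the part of this in the HEK293T differences was not tested.

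The members were not equally visible. IL1R2 (A_23_P79398) and IL18 were well above background in the Ls174T samples on every array, IL1B on the 4 Ls174T reference arrays, and 1 probe of IL1RAP on all 12 arrays. The IL1A probe was not well above background in any sample, at 1.14 to 1.37 times the local background. In HEK293T samples the signal of IL1R2 was 1.60 to 2.22 times background, that of IL1R1 1.92 to 2.25 times, and those of IL1B, IL1RN and IL18 1.29 to 1.80 times. The reference RNA gave clear signal for IL1R2, IL1B, IL18, IL1R1 and IL1RAP, so that most of these probes counted as well-measured through the reference channel.

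**Figure D1:**
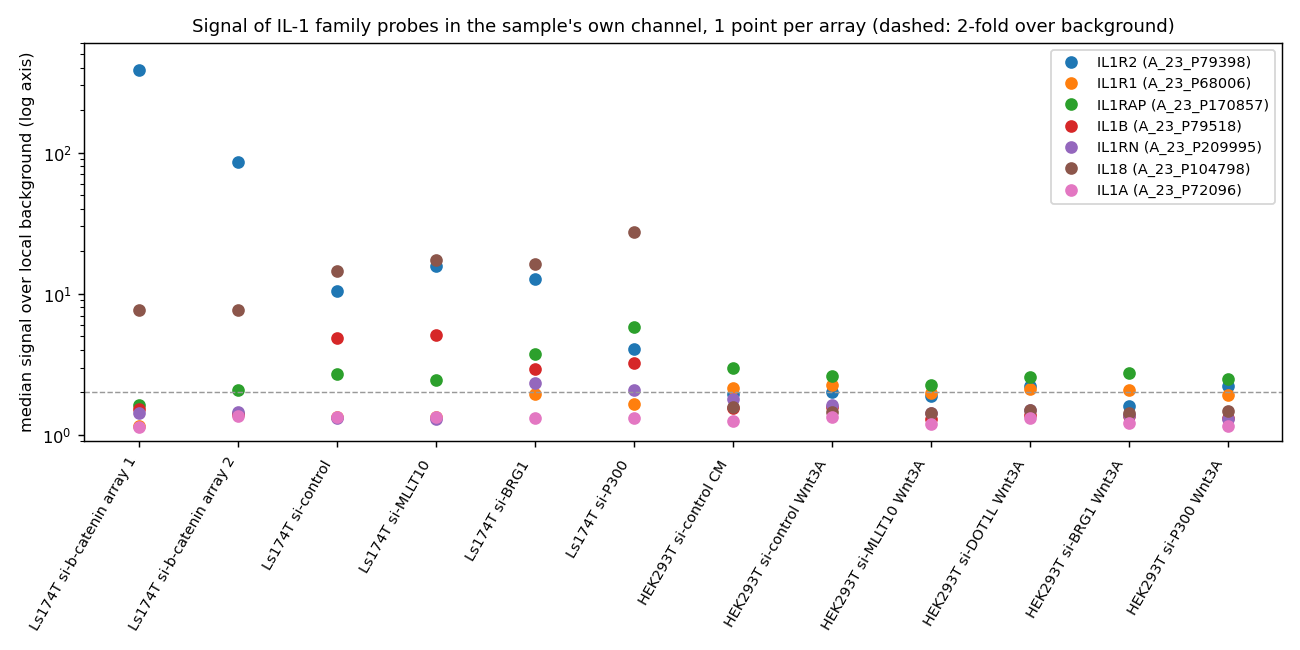
Median signal over local background (log axis) in the sample's own channel for 1 probe of each member, 1 point per array, with a dashed line at 2-fold. IL1R2 reached 387 and 85.7 times background in β-catenin-depleted cells and lay between 1.60 and 2.22 times on the HEK293T arrays.

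IL1R2 was the member with the largest change. On the 2 arrays of the β-catenin pair, probe A_23_P79398 read 5.20 ± 0.53 and 5.34 ± 0.55 as the log2 ratio of depleted over control RNA, a mean of 5.27 ± 0.38 or 38.6-fold. The second probe, A_24_P63019, read 4.76 ± 0.50 and 4.18 ± 0.44, a mean of 4.47 ± 0.33 or 22.2-fold. Both probes were high on both dye orientations, and both channels were well above background. Signal over background at A_23_P79398 was 387 in the depleted and 16.5 in the control channel on the first array, and 85.7 and 3.21 on the other. In the order of all 16499 well-measured probes the 2 IL1R2 probes stood at 2 and 20. The probe just above A_23_P79398, A_24_P152845, has no symbol here and read 5.57 ± 0.41, and the one just below was AKR1B10, an aldo-keto reductase, at 5.23 ± 0.38. These values chose the gene and are a description.

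**Figure D2:**
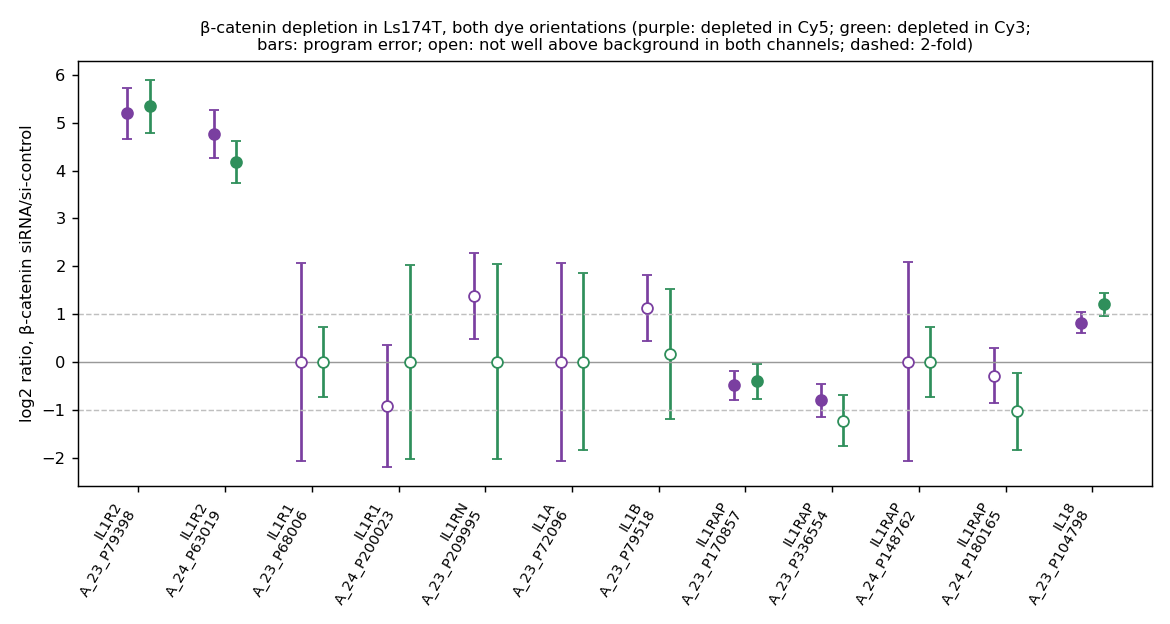
Log2 ratio of β-catenin-depleted over si-control RNA for all 12 probes on the 2 arrays of the pair (purple, depleted RNA in Cy5; green, depleted RNA in Cy3), with program errors as bars, open symbols where a channel was not well above background, and dashed lines at 2-fold. Both IL1R2 probes lie between 4.18 and 5.34 and IL18 at 0.82 and 1.20, and the dim probes scatter around 0 with wide bars.

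Against reference RNA, IL1R2 (A_23_P79398) stood at a log2 ratio of 2.64 ± 0.32 in Ls174T si-control cells, 3.06 ± 0.35 in si-MLLT10, 2.03 ± 0.28 in si-BRG1 and 0.40 ± 0.21 in si-P300 cells. The si-P300 sample was the lowest of the 4, and the si-control and si-MLLT10 samples lay within their combined error. The change was -2.24 ± 0.38 after p300 depletion, 4.72-fold lower, which placed the probe 34th from the lowest of 26127 well-measured probes. After BRG1 depletion it was -0.61 ± 0.42 and after MLLT10 depletion 0.42 ± 0.47, both within 2-fold. On the slide that si-BRG1 and si-P300 shared, BRG1-depleted cells read 1.63 ± 0.35 above p300-depleted cells. The second probe was well-measured on the si-MLLT10 array alone of these 4, with sample signals of 1.51 to 2.46 times background, so it entered no comparison. Its ratios ran in the same order, from 4.83 ± 0.56 in si-MLLT10 over 3.56 ± 0.49 in si-control and 2.27 ± 0.40 in si-BRG1 to 1.26 ± 0.64 in si-P300 cells.

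In HEK293T cells IL1R2 lay below the reference on every array. The log2 ratio was -1.89 ± 0.28 in control medium and -1.01 ± 0.23 after Wnt3A. Within Wnt3A it was -1.30 ± 0.25 in si-MLLT10, -1.19 ± 0.24 in si-DOT1L, -2.50 ± 0.32 in si-BRG1 and -0.53 ± 0.21 in si-P300 cells. The highest HEK293T value, in si-P300 cells, was 0.92 ± 0.30 below the lowest Ls174T value. The share of all probes with such a gap between the lines was not counted. At the second probe, which was dim in HEK293T cells, the gap of 1.26 was within the combined error of 1.90. In the order at A_23_P79398, neighbours that lay within their combined error were si-control Wnt3A, si-DOT1L and si-MLLT10. Wnt3A raised the ratio by 0.88 ± 0.36 (1.84-fold), past the 1.5-fold threshold used for this line, and BRG1 depletion lowered it by -1.50 ± 0.40 (2.83-fold). MLLT10, DOT1L and p300 depletion changed it by -0.30 ± 0.34, -0.19 ± 0.33 and 0.48 ± 0.32. Within 1 slide, BRG1-depleted cells lay -1.98 ± 0.38 from p300-depleted cells, and the MLLT10- and DOT1L-depleted Wnt3A samples lay 0.58 ± 0.37 and 0.69 ± 0.37 above control medium. These are ratios of a sample signal near background. With a background correction that damps dim signals (normexp, offset 50) the Wnt3A change was 0.53, under the threshold, and the BRG1 change was -0.77.

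**Figure D3:**
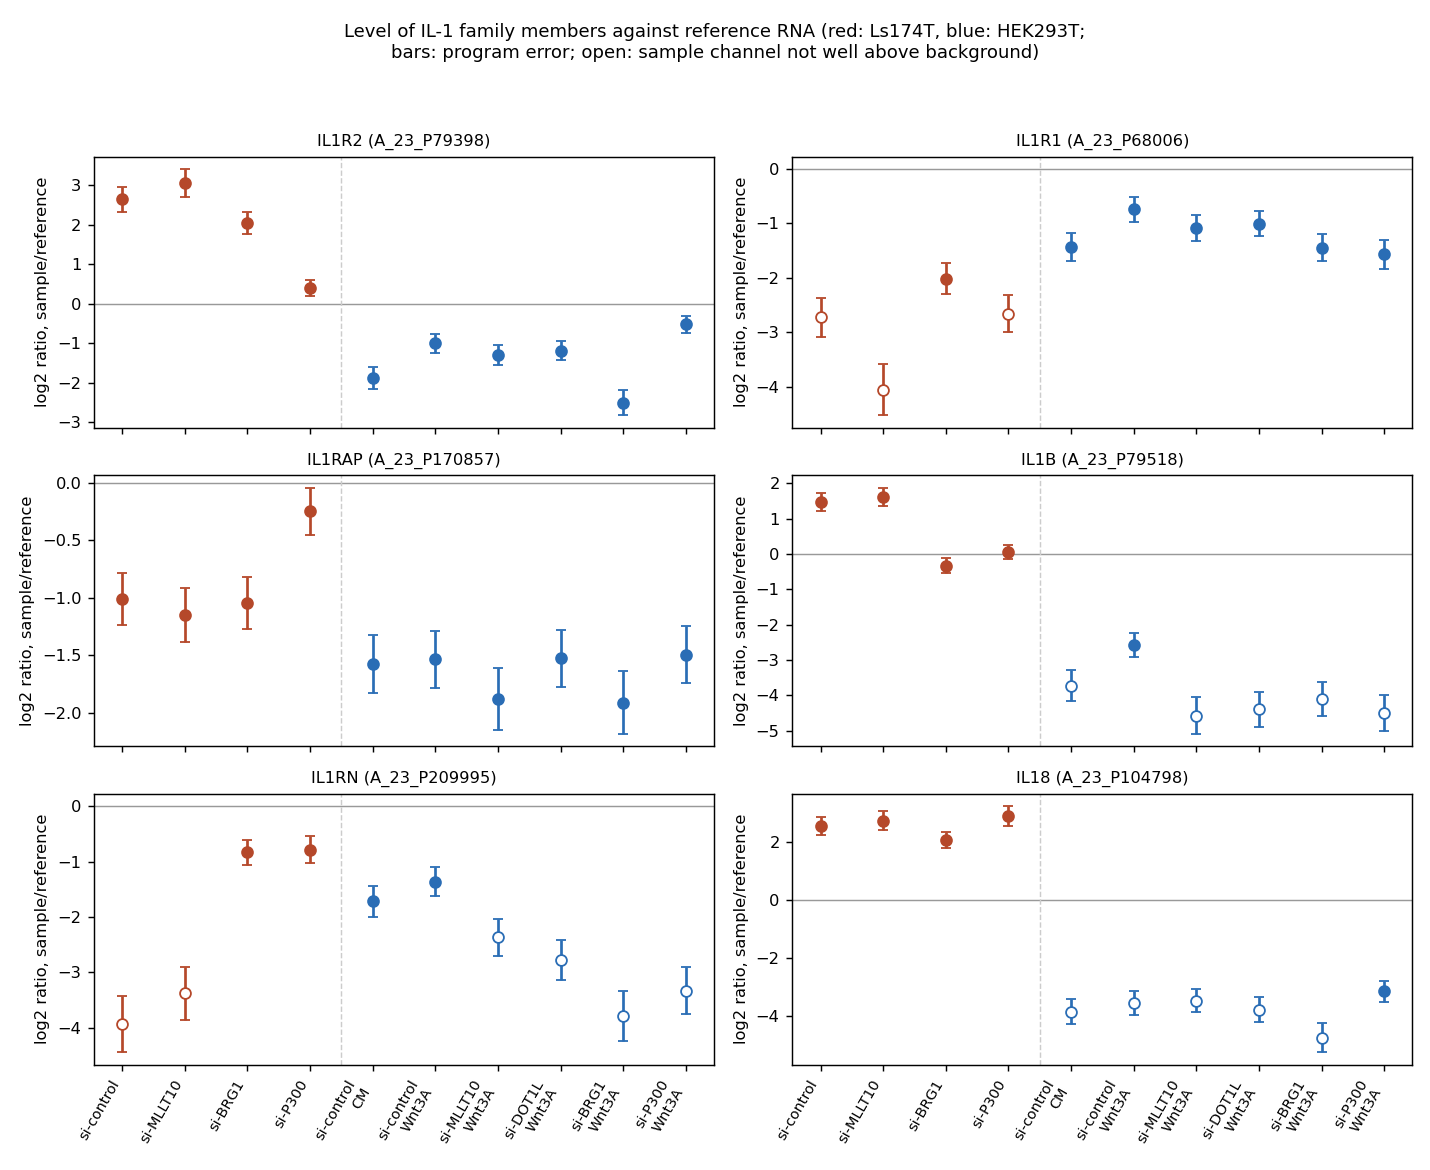
Log2 ratio of sample over reference RNA on the 10 reference arrays for 1 probe of 6 members (red, Ls174T; blue, HEK293T), with program errors as bars and open symbols for samples that were not well above background. IL1R2 falls from 2.64 in si-control to 0.40 in si-P300 Ls174T cells and lies between -2.50 and -0.53 in HEK293T cells.

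The probes nearest to IL1R2 in the 4 Ls174T changes were found by Euclidean distance among 16077 probes well-measured in all 4. They were FABP1 (distance 0.64), 2 probes of AKR1B10 (0.92 and 1.09), TFF2 (1.34) and MALL (1.51). FABP1 encodes a fatty acid-binding protein of enterocytes and TFF2 a trefoil peptide of mucous cells. FABP1 changed by 5.07 after β-catenin, 0.67 after MLLT10, -1.03 after BRG1 and -1.88 after p300 depletion, beside 5.27, 0.42, -0.61 and -2.24 for IL1R2. The β-catenin change used to choose IL1R2 is 1 of the 4 coordinates, and the other 3 share the si-control array, so the likeness is a description.

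The gene of the signalling receptor was dim in most Ls174T samples and could be followed mainly in HEK293T cells. IL1R1 (A_23_P68006) had a log2 ratio to reference of -2.72 ± 0.36 in Ls174T si-control, -4.05 ± 0.47 in si-MLLT10, -2.02 ± 0.28 in si-BRG1 and -2.66 ± 0.34 in si-P300 cells, and only the si-BRG1 sample was well above background. Its change of -1.32 ± 0.59 after MLLT10 depletion therefore sets 2 dim samples against each other and gives no fold, and that after BRG1 depletion was at least 1.09-fold higher. On the β-catenin pair the program set the IL1R1 ratio to 0 on both arrays at this probe, where neither channel was well above background. In HEK293T cells IL1R1 was well above background in all 6 samples, at -1.43 ± 0.25 in control medium, -0.74 ± 0.23 after Wnt3A, -1.09 ± 0.24 in si-MLLT10, -1.01 ± 0.23 in si-DOT1L, -1.44 ± 0.25 in si-BRG1 and -1.57 ± 0.26 in si-P300 cells. The si-control Wnt3A sample was the highest of the 6. Wnt3A changed it by 0.69 ± 0.34 (1.62-fold), BRG1 depletion by -0.70 ± 0.34 (1.63-fold lower) and p300 depletion by -0.83 ± 0.35 (1.78-fold lower), all 3 past the threshold and all 3 set against the array that stood alone on its slide. On shared slides, si-MLLT10 and si-DOT1L in Wnt3A lay 0.34 ± 0.35 and 0.42 ± 0.34 above control medium, and si-BRG1 lay 0.12 ± 0.36 above si-P300. With normexp the 3 changes were 0.48, -0.55 and -0.42, all short of the threshold. The second IL1R1 probe (A_24_P200023) was not well-measured in any comparison and read -0.14 ± 0.40 with Wnt3A, 0.03 ± 0.39 after BRG1 and 0.56 ± 0.40 after p300 depletion, so the 2 probes did not show the same changes.

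IL1RAP, the gene of the accessory protein, had no change past the threshold at its brightest probe. At A_23_P170857 the log2 ratio was -1.01 ± 0.23 in Ls174T si-control, -1.15 ± 0.23 in si-MLLT10, -1.05 ± 0.23 in si-BRG1 and -0.25 ± 0.21 in si-P300 cells, and -1.91 to -1.50 over the 6 HEK293T samples. The p300-depleted Ls174T sample stood above the other 3 by a change of 0.76 ± 0.31 against si-control, short of 2-fold. A second probe, A_23_P336554, read 0.19 ± 0.29 for the same change. On the β-catenin pair A_23_P170857 read -0.49 ± 0.30 and -0.41 ± 0.36, a mean of -0.45 ± 0.23. A_23_P336554 read -0.80 ± 0.34 and -1.23 ± 0.53 there, a mean of -1.01 ± 0.31, but it was not well-measured on the second array, where the depleted sample was not well above background. In HEK293T cells no change of A_23_P170857 passed 1.5-fold, with a range over the 5 comparisons from -0.38 after BRG1 depletion to 0.04. A_23_P336554 read -1.04 ± 0.45 after BRG1 depletion, where the sample channel was not well above background and the reference channel of the same spot read 2.08 times background against 3.75 to 4.61 times on the other 5 HEK293T arrays. With normexp background correction its sign turned, to 0.36. The other 2 IL1RAP probes were not well-measured in any comparison.

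IL1B, the gene of IL-1β, was measured in Ls174T cells by 8 to 10 usable spots per array. Its log2 ratio to reference was 1.47 ± 0.25 in si-control, 1.63 ± 0.26 in si-MLLT10, -0.33 ± 0.21 in si-BRG1 and 0.06 ± 0.21 in si-P300 cells, with an SD between spots of 0.03 to 0.09. The 8 si-control spots ran from 1.39 to 1.53 and the si-MLLT10 spots from 1.44 to 1.75, which overlap, and the si-BRG1 spots from -0.41 to -0.27 and the si-P300 spots from -0.01 to 0.10, which lay wholly below the si-control spots. Spots of 1 array share 1 RNA sample and are not replicates of the condition. The changes were -1.80 ± 0.33 after BRG1 depletion (3.48-fold lower), -1.41 ± 0.33 after p300 depletion (2.66-fold lower) and 0.16 ± 0.36 after MLLT10 depletion. Both falls stayed past the 2-fold threshold in the 7 alternative analyses, between -1.81 and -1.38 for BRG1 and between -1.43 and -1.07 for p300. Among these 7, the deposited table and the 2 other filters could only return the same value. On their shared slide the BRG1- and p300-depleted samples differed by -0.39 ± 0.30. On the β-catenin pair IL1B was not well above background in either condition, with 1 of 16 spots in the depleted and 0 of 16 in the control channel above it, so no change could be read. The si-control RNA read 1.63 and 1.18 times background in the pair, but 4.82 times on the reference array, where all 8 spots were well above it. The 2 si-control measurements of IL1B thus differed, for a reason that was not tested. The falls after BRG1 and p300 depletion rest on the reference array.

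In HEK293T cells IL1B was close to background. The sample channel was well above background for 6 of 9 spots after Wnt3A and for none of the 9 or 10 spots on each of the other 5 arrays. The ratio was -3.72 ± 0.43 in control medium, -2.58 ± 0.34 after Wnt3A, -4.57 ± 0.52 in si-MLLT10, -4.39 ± 0.49 in si-DOT1L, -4.10 ± 0.47 in si-BRG1 and -4.50 ± 0.51 in si-P300 cells. The si-control Wnt3A sample was the highest. On the channel signal itself the brightest sample, si-control Wnt3A, did not exceed the lowest signal marked well above background on the array compared with it. No fold is therefore given for any HEK293T comparison of IL1B. With normexp background correction the 5 changes shrank to between -0.36 and 0.31. IL1A had no sample well above background, and no change is given.

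**Figure D4:**
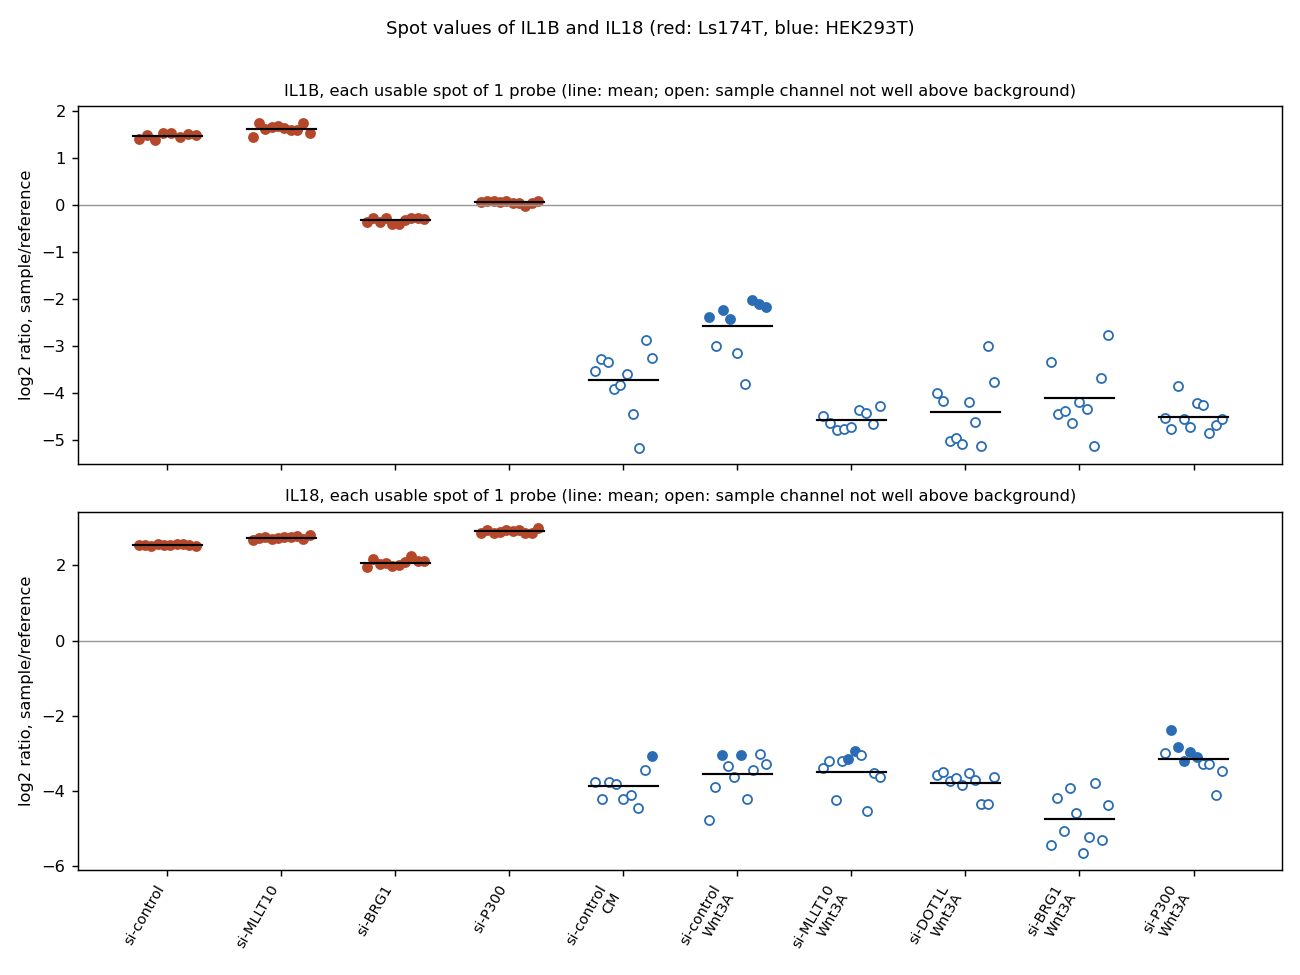
Log2 ratio of sample over reference RNA for each usable spot of the IL1B and IL18 probes on the 10 reference arrays (red, Ls174T; blue, HEK293T), with the mean as a line and open symbols for spots whose sample signal was not well above background. The Ls174T spots of IL1B fall into a high pair (si-control, si-MLLT10) and a low pair (si-BRG1, si-P300), and the HEK293T spots are mostly open and spread widely.

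IL1RN, the gene of the receptor antagonist, was not well above background in Ls174T si-control and si-MLLT10 cells, at 1.31 and 1.30 times background, and was well above it in si-BRG1 and si-P300 cells, at 2.35 and 2.07 times. Its log2 ratios were -3.94 ± 0.51 and -3.38 ± 0.47 in the dim pair and -0.83 ± 0.23 and -0.79 ± 0.24 in the bright pair. Since the si-control sample gives only a bound, IL1RN was at least 2.02-fold higher after BRG1 depletion and at least 1.90-fold higher after p300 depletion, and the measured ratios differed by 3.10 ± 0.56 and 3.15 ± 0.56. Both bright samples lay on 1 slide, where the median sample signal over background was 3.47 and 3.24, against 2.27 and 2.30 for si-control and si-MLLT10 on another slide. PTPRC was well above background in the same 2 samples and in neither of the other 2 Ls174T reference samples, and 8 of 9 leukocyte markers were above it there against 6 and 7. Other marker lists gained as well on these 2 arrays. Markers of HEK293T cells were above background for 5 and 4 of 7 genes against 3 and 3. Fibroblast markers were above it for 4 of 5 genes on both arrays against 3 on both others. The part of slide and of these markers in the IL1RN change was not tested. With normexp background correction the 2 log2 changes were 0.38 and 0.37, smaller than the bounds, so the bounds hold only for the signals they were computed on. On their shared slide the 2 bright samples differed by -0.05 ± 0.33.

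In HEK293T cells IL1RN was well above background in the 2 si-control samples, at a log2 ratio of -1.71 ± 0.28 in control medium and -1.36 ± 0.26 after Wnt3A, and in none of the 4 depleted samples, which ranged from -3.78 to -2.37. The change with Wnt3A was 0.35 ± 0.38. Against si-control Wnt3A the level was at least 1.59-fold lower after MLLT10, 2.00-fold after DOT1L, 2.02-fold after BRG1 and 1.85-fold after p300 depletion. These 4 comparisons share the si-control Wnt3A array. On the slide shared with control medium, the MLLT10- and DOT1L-depleted samples were at least 1.54-fold and 1.93-fold lower than control medium. With normexp the 4 log2 changes against si-control Wnt3A lay between -0.41 and -0.15, smaller than these bounds.

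IL18 was the member that rose with β-catenin depletion besides IL1R2. The pair read 0.82 ± 0.22 and 1.20 ± 0.24, a mean of 1.01 ± 0.16 or 2.02-fold, just past the threshold, with 10 usable spots from 0.78 to 0.88 on 1 array and 8 from 1.05 to 1.32 on the other. Either array alone lay on a different side of 2-fold. In Ls174T cells its ratio to reference was 2.55 ± 0.31 in si-control, 2.74 ± 0.33 in si-MLLT10, 2.08 ± 0.28 in si-BRG1 and 2.91 ± 0.34 in si-P300 cells. The spots of every depleted sample lay apart from those of si-control (2.51 to 2.58), yet the changes of 0.20 ± 0.45, -0.47 ± 0.42 and 0.36 ± 0.46 were within 2-fold, and only that after BRG1 depletion exceeded the program error. In HEK293T cells the ratio was -4.75 to -3.15, with 0 to 5 of 9 or 10 spots well above background, and only the si-P300 sample, with 5 of 10 spots, reached the share needed for a level. Its ratio differed from that of si-control Wnt3A by 0.40 ± 0.55, within 1.5-fold and within the error, and normexp gave -0.056. The change of -1.19 ± 0.66 after BRG1 depletion sets 2 dim samples against each other and gives no fold.

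**Figure D5:**
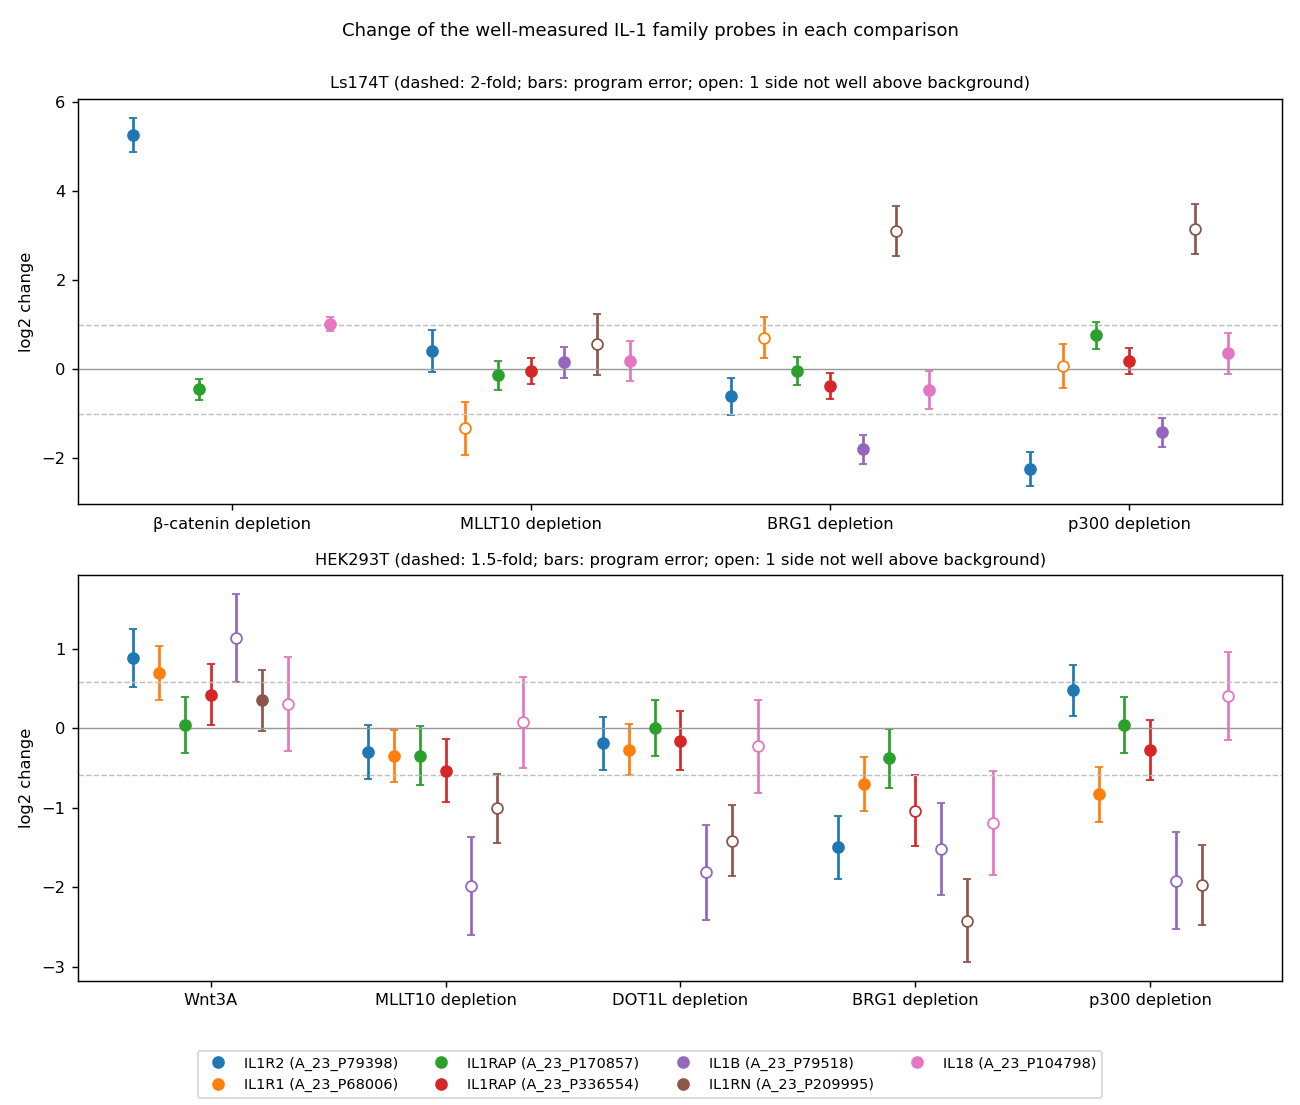
Log2 change of the 7 IL-1 family probes well-measured on the reference arrays, by comparison, in Ls174T (top) and HEK293T cells (bottom), with program errors as bars, open symbols where 1 side was not well above background, and dashed lines at 2-fold and 1.5-fold. In Ls174T cells IL1R2 lies at 5.27 after β-catenin and at -2.24 after p300 depletion, and IL1B lies below -1 after BRG1 and p300 depletion.

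Counted over the members, 4 of the 12 probes were well-measured on the β-catenin pair and 7 in every other comparison. In the β-catenin comparison 3 of the 4 passed 2-fold, all upward and all with both sides well above background, beside 5.65% of all well-measured probes in either direction, 4.48% upward and 4.72% where both sides were well above background. This is the contrast that chose IL1R2, and nothing is read from it. After MLLT10 depletion in Ls174T cells 1 of 7 member probes passed 2-fold (background 1.75%) and 0 of 5 did so with both sides well above background (0.15%). After BRG1 depletion in Ls174T cells 2 of 7 passed (5.21%), 1 of 5 with both sides well above background (1.65%), and after p300 depletion 3 of 7 (5.76%) and 2 of 5 (2.17%). With Wnt3A in HEK293T cells 3 of 7 passed 1.5-fold, all upward, beside 6.54% of all probes in either direction and 3.77% upward, and 2 of 5 did with both sides well above background (4.61%).

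In the 4 HEK293T depletions every member probe past 1.5-fold was lower. All 4 are set against the same si-control Wnt3A array, so they are not independent. That array held the highest HEK293T ratio of IL1R1 (A_23_P68006), IL1RN and IL1B. After MLLT10 depletion these were 2 of 7, beside 7.32% of all probes in either direction and 3.81% lower, and 0 of 4 with both sides well above background (4.7%). After DOT1L depletion they were 2 of 7, beside 5.63% and 3.53% lower, and 0 of 4 with both sides well above background (3.3%). After BRG1 depletion they were 6 of 7, beside 22% and 11.7% lower, and 2 of 3 with both sides well above background (19.9%). After p300 depletion they were 3 of 7, beside 12.1% and 7.9% lower, and 1 of 4 with both sides well above background (9.2%). The median member change after BRG1 depletion in HEK293T cells was -1.19, beside 0.02 over all 26113 well-measured probes, but 4 of the 7 had a side not well above background. Over the 3 with both sides well above background it was -0.70, beside 0.03 over all such probes. These shares rest on few probes, and the probes of 1 gene share a transcript.

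Other genes of the pathway were taken as lists. Of the 7 other IL-1 family ligands, IL33 and IL37 were well-measured in Ls174T reference comparisons. IL33, an alarmin, changed by 1.02 ± 0.20 after β-catenin, -1.04 ± 0.41 after BRG1 and -1.86 ± 0.39 after p300 depletion, and IL37, a cytokine that dampens inflammation, by -1.38 ± 0.49 after BRG1 and -1.38 ± 0.49 after p300 depletion. The list had 2 well-measured probes in these comparisons, and both were lower after BRG1 and after p300 depletion, where 1.65% and 2.17% of all probes with both sides well above background passed 2-fold. Neither passed 2-fold after MLLT10 depletion. In HEK293T cells IL37 changed by -0.70 ± 0.34 after DOT1L, -1.01 ± 0.35 after BRG1 and -0.96 ± 0.37 after p300 depletion, and IL33 by -0.73 ± 0.32 after p300 depletion. The other family receptors and binding proteins were mostly unmeasured. Of their 9 probes, 1 was well-measured on the β-catenin pair, 2 in each other Ls174T comparison and 3 or 4 in HEK293T cells. None passed in Ls174T cells or with Wnt3A, where 1.75% to 6.54% of all probes did. Only IL18R1, a chain of the IL-18 receptor, passed elsewhere. In HEK293T cells it changed by 0.65 ± 0.50 after BRG1 depletion (1 of 4 probes, beside 22% of all). After p300 depletion it changed by 0.59 ± 0.49 (1 of 3, beside 12.1%).

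For the signalling chain below the receptors, 11 of 23 probes for 16 genes were well-measured on the β-catenin pair and 17 to 20 elsewhere. After β-catenin depletion 1 of 11 passed the threshold, beside 5.65% of all probes. After MLLT10 depletion in HEK293T cells 2 of 18 did, beside 7.32%. NFKBIA, the inhibitor that retains NF-κB in the cytoplasm, changed by -1.23 ± 0.11 after β-catenin depletion, and 2 probes of TAB3 changed by -0.72 ± 0.31 and -0.64 ± 0.30 after MLLT10 depletion in HEK293T cells. No other probe of this list passed in any of the 9 comparisons, in which 1.75% to 22% of all probes did. Among the genes of the inflammasome and cytokine processing, CASP1, the protease that cleaves pro-IL-1β and pro-IL-18, changed by 3.07 ± 0.26 (8.40-fold) after β-catenin depletion, the only one of 6 well-measured probes past 2-fold. In HEK293T cells probes of this list were lower in all 4 depletions, which share the si-control Wnt3A array. They were 5 of 10 after MLLT10 depletion, beside 3.81% of all probes lower, 4 of 10 after DOT1L (3.53%), 6 of 9 after BRG1 (11.7%) and 3 of 9 after p300 depletion (7.9%), with 2, 3, 5 and 1 of these well above background on both sides. With p300 depletion 1 probe was higher, and with the other 3 none was. The 4 largest of the 5 after BRG1 depletion were CASP4 at -1.84 ± 0.86, GSDMD, the pore-forming gasdermin, at -1.25 ± 0.53, NLRP1 at -1.14 ± 0.40 and PYCARD, the adaptor ASC, at -0.97 ± 0.68.

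Genes that respond to IL-1 and NF-κB in many cells followed no single direction. After β-catenin depletion 3 of 9 well-measured probes were higher, beside 4.48% of all probes, and none lower: LCN2 at 2.16 ± 0.20, TNFAIP2 at 1.62 ± 0.18 and NFKBIZ at 1.17 ± 0.22. After p300 depletion in Ls174T cells 3 of 21 were higher and 2 lower, beside 5.76% of all probes in either direction, and the 2 with both sides well above background were the chemokine genes CXCL2 (A_23_P315364) at -1.22 ± 0.30 and CXCL3 at -1.05 ± 0.31. After BRG1 depletion in Ls174T cells 5 of 21 were higher and none lower, beside 5.21% of all probes in either direction. Of these 5, 1 had both sides well above background. With Wnt3A in HEK293T cells 4 of 20 were higher, beside 3.77% of all probes, and none lower, among them IL6 at 1.12 ± 0.46 and another CXCL2 probe (A_24_P257416) at 0.80 ± 0.33. After BRG1 depletion in HEK293T cells 4 of 20 were higher and 7 lower, beside 22% of all probes in either direction. PTGS2 (A_24_P77008) was at 1.44 ± 0.41. The 2 CXCL2 probes went opposite ways, A_23_P315364 at 0.59 ± 0.39 and A_24_P257416 at -0.78 ± 0.33. After DOT1L depletion 1 of 20 was higher and 6 lower, beside 5.63% of all probes in either direction. After p300 depletion in these cells 9 of 20 were lower and none higher, beside 7.9% of all probes lower, and IL6 was at -1.56 ± 0.49. IL6 was also lower after MLLT10 (-1.14 ± 0.46), DOT1L (-1.04 ± 0.45) and BRG1 depletion (-1.96 ± 0.52), in comparisons that share the si-control Wnt3A array.

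On chromosome 2, IL1R2 lies next to IL1R1 and IL1A next to IL1B. By the RefSeq gene table, 10 genes that are no members adjoin them, of which 6 had a well-measured probe. MAP4K4, which precedes IL1R2, ran from -0.39 to 0.37 over 13 values in Ls174T cells and from -0.52 to 0.35 over 20 values in HEK293T cells at 4 probes, none past the threshold. SDHD beside IL18, CKAP2L beside IL1A, PSD4 beside IL1RN and IL1F10 beside IL1RN also had no value past it. IL37, which follows IL1B, passed it in 2 of 3 Ls174T and 3 of 5 HEK293T comparisons, all downward, as given above. In Ls174T cells 5.21% and 5.76% of all probes passed after BRG1 and p300 depletion. In HEK293T cells 5.63%, 22% and 12.1% did after DOT1L, BRG1 and p300 depletion. Within each line these comparisons share the same si-control array, on another slide than the depleted samples, so they are not independent.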

How the data were processed

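The members and the gene lists were chosen with earlier results of these data known. Total RNA of each culture was hybridised by the authors to dual-color Agilent 4x44K arrays and read with the Agilent Feature Extraction program, version 10.5.1.1 per the file headers and 8.5.1.1 per the submitters' processing notes. The deposited intensities are the median signal, local background and processed signal of each channel, and the deposited log10 ratios are processed Cy5 over Cy3 with the program's error. The deposited table of values holds the same log10 ratios, and 1 array of the β-catenin pair is turned in it.

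Log10 ratios were converted to log2, turned to sample over reference or depleted over control, and averaged over the spots of a probe after removal of control spots and outlier flags (84 to 179 features per array). The pair was averaged as 1 replicate. Other changes are differences of 2 arrays, with errors combined in quadrature, so no test was made. Well-measured meant signal in either channel over 2-fold local background for a share of at least 0.5 of the spots on each array. A change counted past 2-fold for Ls174T arrays and past 1.5-fold for HEK293T arrays, as in the study. Bounds for dim probes used per-channel log2 signals after loess and Aquantile (limma 3.58.1, R 4.3.3), the bright sample against the higher of the dim signal and the lowest signal marked well above background on that array, and none is given where it exceeded the fold of the ratios themselves. Named were all member probes, the siRNA targets and AXIN2, up to 4 probes per list and comparison that passed the fold with both sides well above background, the 2 probes beside IL1R2 in the β-catenin order, the 5 nearest probes by distance, and the adjoining genes. Alternatives were normexp with offset 50 and loess, the deposited table, the sample channel alone, 2 other filters, outliers kept, medians over spots, each array of the pair left out, other thresholds and within-slide differences. The comparison step was tested on simulated data. Symbols came from RefSeq accessions, which matched for 27612 of 43376 features. The number of arrays limits the precision. No feature was saturated (0 on all arrays).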

Additional observations from a re-analysis of the deposited data

Results flagged for a closer look

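With the same siRNA, 4 member results moved in opposite directions in Ls174T and HEK293T cells by more than the program error on both sides. With 1 array per condition the difference between the lines was not tested. IL1R2 (A_23_P79398) changed by -2.24 after p300 depletion in Ls174T and by 0.48 in HEK293T cells, where its signal was near background and normexp gave -0.026. IL1RN changed by 3.10 after BRG1 depletion in Ls174T and by -2.42 in HEK293T cells, and by 3.15 and -1.97 after p300 depletion. In each of these 4 comparisons the dimmer IL1RN sample was not well above background, so that the bounds in the report stand in for the folds. With normexp the changes were smaller than those bounds. IL1R1 (A_23_P68006) changed by 0.71 after BRG1 depletion in Ls174T and by -0.70 in HEK293T cells, and its Ls174T si-control sample was not well above background. The HEK293T values share the si-control Wnt3A array.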

How the results depend on the processing

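No paired analysis was possible because every condition other than the dye-swapped pair has 1 array. Of 405 member values recomputed, 369 moved by less than the program error and 35 by more. The 369 include values that could not move: 60 from the deposited table, 60 with no filter and 27 with the filter on both channels. The median over spots gave 60 more, and it cannot move a probe with 1 spot. The 369 therefore do not count values that withstood a change of method. With normexp 37 moved by less than the error, 22 by more and 1 changed sign. With the sample channel alone 53 moved by less and 3 by more. One called value changed sign, IL1RAP (A_23_P336554) after BRG1 depletion in HEK293T cells, at 0.36 with normexp. Of the 25 member results past the fold, 6 stayed past it in every alternative that gave a value: both IL1R2 probes after β-catenin depletion, IL1R2 after p300 depletion in Ls174T and BRG1 depletion in HEK293T cells, and IL1B after BRG1 and p300 depletion in Ls174T cells. The β-catenin values chose IL1R2 and lay far past the fold, so their staying past it lends no support. The other 19 fell short with normexp, which adds an offset and so damps dim probes, IL1R1 after BRG1 depletion in HEK293T cells did so also in the sample channel alone (-0.54), and IL18 after β-catenin depletion without the array with depleted RNA in Cy3. Without either array of the pair in turn, IL1R2 ranged from 5.20 to 5.34. With normexp IL1R2 changed by -0.77 after BRG1 and -0.026 after p300 depletion in HEK293T cells. Against control medium on 1 slide, MLLT10- and DOT1L-depleted HEK293T cells in Wnt3A gave 0.58 and 0.69 for IL1R2, a different contrast.

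Counts over all probes past the fold depended on the treatment of dim probes, and are given in the order β-catenin, MLLT10, BRG1 and p300 depletion in Ls174T, then Wnt3A, MLLT10, DOT1L, BRG1 and p300 depletion in HEK293T cells. The main counts were 932, 445, 1343, 1504, 1770, 1929, 1509, 5750 and 3123. With normexp they were 591, 10, 147, 205, 602, 421, 330, 3600 and 1085, with both channels over background 577, 14, 164, 272, 630, 646, 310, 3691 and 1253, and with no filter 1670, 3028, 4873, 4652, 6930, 7459, 6482, 11927 and 9078. With the sample channel alone they were 2806 and 2778 after BRG1 and p300 depletion in Ls174T, and 5431, 4564, 4160, 9700 and 6008 in HEK293T cells. At 1.5-fold in Ls174T they were 2851, 1153, 3255 and 3896, and at 2-fold in HEK293T cells 463, 623, 529, 1737 and 1027. The share higher among the counted probes moved from 72.0% to 24.5% (normexp) and 87.2% (sample channel) after BRG1 and from 71.0% to 23.9% and 83.7% after p300 depletion in Ls174T cells, from 57.6% to 77.1% and 81.8% with Wnt3A, from 47.9% to 68.9% and 22.6% after MLLT10 and from 37.2% to 24.5% and 13.5% after DOT1L depletion in HEK293T cells, and in the sample channel from 47.1% to 29.2% after BRG1 and from 34.6% to 17.6% after p300 depletion. With both channels over background the share higher was 71.4% (main 43.1%), 39.0% and 38.6% after MLLT10, BRG1 and p300 depletion in Ls174T cells, and 74.9% and 58.4% after MLLT10 and DOT1L depletion in HEK293T cells. With no filter it was 53.2% after MLLT10 and 67.7% (main 79.3%) after β-catenin depletion in Ls174T cells, and 65.9% after the latter without its second array. The sample channel alone also moved the median of all probes to 0.10 with Wnt3A and to -0.13 after BRG1 depletion in HEK293T cells. The deposited table, the outlier flags and the spot summary kept all 9 counts within 1.5 times.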
